A study of Mus musculus with 23 samples.

Results

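The calcium/calmodulin-dependent kinases were examined as a set of 10 genes given by a list of symbols: Camk2a, Camk2b, Camk2d, Camk2g, Camk1, Camk1d, Camk1g, Camk4, Camkk1 and Camkk2. They are 10 of the 45706 genes in the count table, and all 10 were among the 18823 genes that passed the filter on low counts. Polyadenylated RNA of mouse hippocampal neurons was sequenced in 23 libraries. The libraries came from 3 populations, named CamK and Grik (excitatory pyramidal cells) and SST (somatostatin-positive interneurons), each from mice labelled SLM2 WT and from mice labelled SLM2 cKO, a conditional knockout of Slm2. Slm2, whose gene symbol is Khdrbs3, encodes an RNA-binding splicing regulator, and the study asked how expression and splicing depend on it in each population. There were 4 libraries in each group except CamK cKO, which had 3.

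Calcium that enters a neuron binds calmodulin, and calcium-loaded calmodulin switches on these serine/threonine kinases. CaMKII is a large assembly of catalytic subunits from the Camk2a, Camk2b, Camk2d and Camk2g genes, whose subunits phosphorylate one another, stay active after calcium has fallen, and are central to plasticity at glutamatergic synapses of the hippocampus. CaMKI and CaMKIV work as single subunits that, besides binding calmodulin, need phosphorylation by the upstream kinases CaMKK1 and CaMKK2, and CaMKIV is known as a nuclear kinase of the transcription factor CREB.

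The age and sex of the mice, the Cre drivers, the deleted exons and the way the cells were isolated are not given in the sources used here. The labels do not say whether replicates came from separate animals, so p-values measure only the spread between these libraries. Gene reads per library ranged from 87612006 to 112993538, and replicates of every group differed by more than sampling noise. The chi-square per degree of freedom between 2 replicates was 75.1 to 198 in SST, 22.2 to 78.4 in CamK and 8.27 to 81.2 in Grik. The fit nevertheless used a shared spread per gene for all groups. Summed excitatory markers (5 genes) were 1558 to 1917 CPM (read counts scaled to 1000000 reads per library) in CamK WT, 2477 to 2857 among Grik WT and 103 to 179 in SST WT, and summed interneuron markers (6 genes) were 6566 to 7368 in SST WT against 46.0 to 145 and 69.6 to 92.8. That sum hides a wide spread of Sst itself, which ran from 159 to 1720 CPM in SST WT and from 1010 to 2125 CPM in SST cKO. Markers of CA1 (3 genes, 625 to 905 CPM in CamK WT and 44.9 to 62.2 among Grik WT) and of CA3 (3 genes, 76.3 to 90.3 and 336 to 411) were higher in CamK and in Grik respectively, the design text naming CA1 and CA3 as the excitatory fields, and dentate granule markers (3 genes) were present at 97.9 to 259 CPM in CamK WT, 139.9 to 149.7 among Grik WT and 27.6 to 38.8 in SST WT. Summed non-neuronal markers (13 genes) were 146 to 224 CPM in CamK WT, 656 to 859 among Grik WT and 305 to 662 in SST WT, and every marker of these lists had reads in all libraries. Khdrbs3 was lower in the libraries labelled cKO than in WT in CamK (means 278.0 and 373 CPM) and SST (93.8 and 130.2 CPM) but higher in Grik (414 and 336 CPM), against the label, and the genotypes did not overlap in any population. Since the deleted exons are not given, a count over the whole gene cannot check the label, and "cKO" stands for the label alone.

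Per kilobase of merged exons, Camk2a was the most abundant of the 10 genes in every group, at 546 ± 14.1 CPM per kb (SD) in CamK WT, 617 ± 41.9 among Grik WT and 97.9 ± 7.92 in SST WT. Camk2b came next in both pyramidal populations, at 205 and 231 CPM per kb, followed by Camkk1, Camk4 and Camk1d. In Grik WT those 3 could not be ordered, since their libraries overlapped (108, 108 and 107 CPM per kb). In SST WT the second place was taken by Camk1g, a CaMKI gene, at 62.6 ± 3.58 CPM per kb, above Camk2b at 54.2 ± 1.36 and Camk2g at 41.9 ± 2.81, with no overlap between these neighbours. Camk1d, Camk4 and Camkk1 overlapped there (means 26.1, 24.7 and 23.8). Camk2d was lowest in all 6 groups per kb of merged exons, between 1.60 and 5.24 CPM per kb on average, although in CamK WT its libraries overlapped those of Camk1. The order depends on the length used: per kb of the longest annotated transcript, Camk1 was below Camk2d in both CamK groups, and in SST WT Camk2b (119.9 CPM per kb) and Camk2g (72.5) stood above Camk1g (69.9), whose libraries overlapped those of Camk2g.

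**Figure D1:**
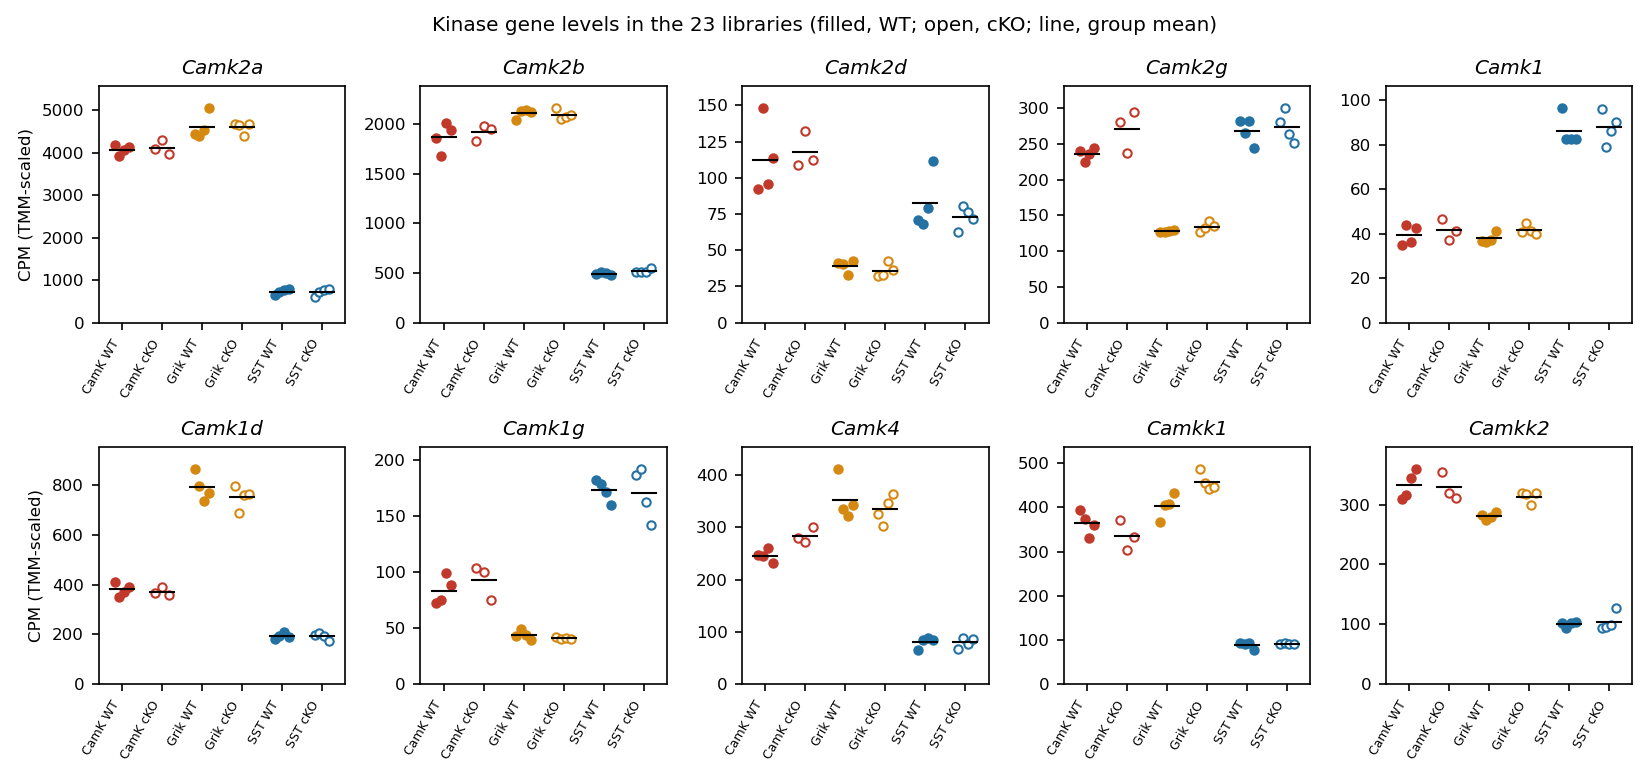
Level of each of the 10 kinase genes in CPM (y axis, from 0, own scale per gene) in the 23 libraries by population and genotype. Points are libraries (filled for WT, open for cKO) and lines are group means; 6 genes (Camk2a, Camk2b, Camk1d, Camk4, Camkk1, Camkk2) sit lower in SST than in both pyramidal populations, and Camk1 and Camk1g sit higher.

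Between the WT populations the 10 genes divided into opposite patterns. Under edgeR's quasi-likelihood test with an adjusted p of 0.05, all 10 differed between CamK and SST, 7 higher in CamK and 3 higher in SST, where 60.1% of all tested genes were called (29.5% higher in CamK and 30.5% higher in SST). All 10 differed between Grik and SST, 6 higher among Grik libraries and 4 higher in SST, against 57.3% of tested genes (28.1% and 29.2%). Between CamK and Grik, 7 of 10 were called, 4 higher in CamK and 3 higher in Grik, against 42% of tested genes (20.9% and 21.1%). The counts are to be read against those backgrounds, since these tests call a large share of all genes. The median log2 fold change of the 10 genes was 1.29 for CamK against SST, where the median of all tested genes was -0.02, and 1.76 for Grik against SST, where it was -0.03. For CamK against Grik the median was -0.04 beside 0.01 for all tested genes. These 3 comparisons share their WT libraries in pairs and are not independent of one another. In bulk libraries, fewer cells of a type and less RNA per cell cannot be told apart.

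**Figure D2:**
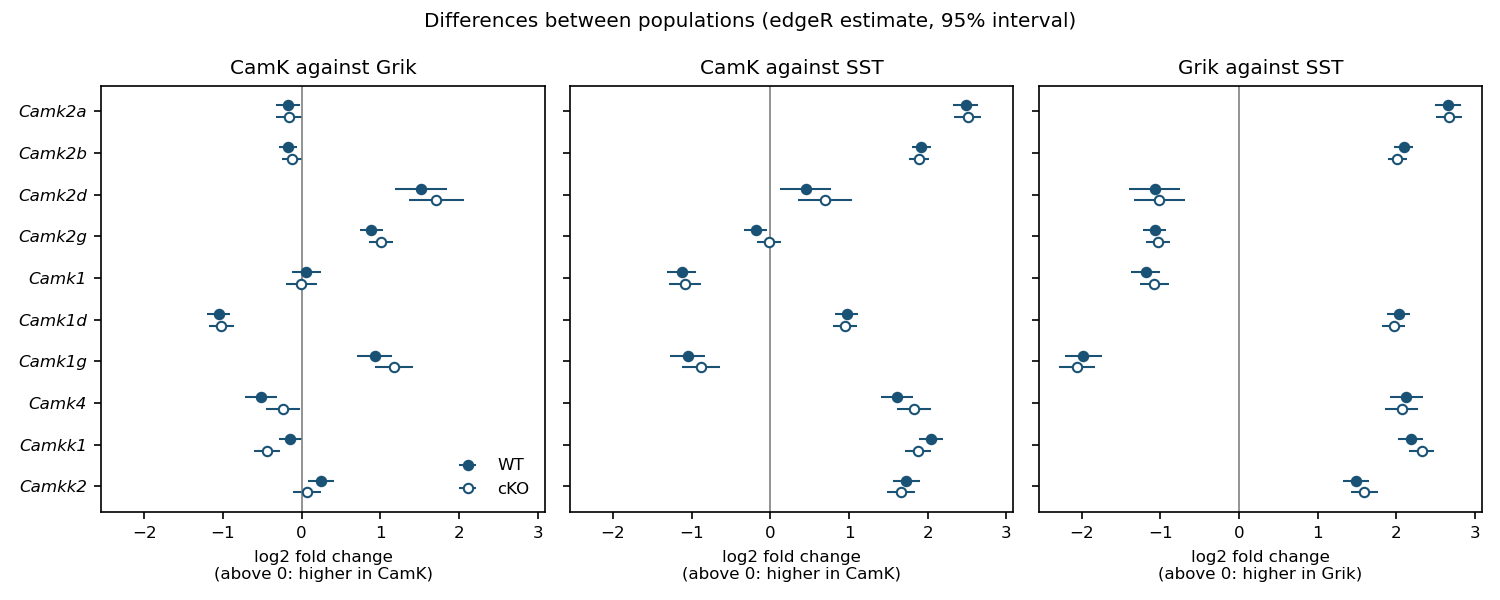
Log2 fold change between populations (x axis, edgeR estimate) for the 10 kinase genes (y axis), in WT (filled) and in libraries labelled cKO (open), with bars giving the 95% interval. In WT the largest distances from 0 are those of Camk2a against SST (2.48 for CamK and 2.66 for Grik), and Camk2d has the largest difference between CamK and Grik (1.52).

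Camk2a (ENSMUSG00000024617, chr18:60925618-60988152, plus strand, with all positions on GRCm38 from GENCODE M21), which encodes the alpha subunit of CaMKII, had the largest fold difference between the pyramidal libraries and SST of the 10 genes. The 4 CamK WT libraries had 3932, 4073, 4128 and 4175 CPM, the 4 Grik WT libraries 4392, 4434, 4541 and 5068, and the 4 SST WT libraries 656, 715, 759 and 792. Every pyramidal library was above every SST library, by a log2 difference of 2.48 (SE 0.08, adjusted p 3.72e-18) for CamK and 2.66 (SE 0.08, adjusted p 8.12e-19) for Grik. The CamK and Grik libraries did not overlap either, and the log2 fold change of CamK against Grik, -0.18 (SE 0.07, adjusted p 0.0548), missed the threshold. It passed with DESeq2's size factors in edgeR (adjusted p 0.0448), in DESeq2 (0.0366), in limma-voom (0.0299), when these populations alone were fitted (0.0126), and without SST WT replicate 1 (0.0456) or 5 (0.0493) or SST cKO replicate 3 (0.0265) or 7 (0.0447). With the score of the non-neuronal markers as a covariate the estimate was 0.0089.

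Camk2b (ENSMUSG00000057897, chr11:5969644-6066362, minus strand) encodes the beta subunit, known for binding the actin cytoskeleton. Its level was 1680.2, 1861, 1941 and 2010.3 CPM in CamK WT, 2046, 2126, 2128 and 2140.4 among Grik WT and 482, 486, 505 and 506 in SST WT. The SST libraries were again below all others, with log2 fold changes of 1.92 (SE 0.06, adjusted p 2.47e-18) and 2.09 (SE 0.06, adjusted p 3.78e-19). Camk2b was also lower in CamK than in Grik, with no overlap and a log2 difference of -0.17 (SE 0.06, adjusted p 0.0151). That call was lost without CamK WT replicate 3 (-0.12, adjusted p 0.0787) and with the non-neuronal score as a covariate (-0.18, adjusted p 0.208).

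Camk2d and Camk2g, which encode the broadly expressed delta and gamma subunits, did not share that pattern. Camk2d (ENSMUSG00000053819, chr3:126596302-126846326, plus strand) was highest in CamK, at 92.1, 95.6, 114 and 149 CPM in WT, lowest in Grik at 32.9, 40.3, 41.2 and 42.9, and between them in SST at 68.3, 70.9, 79.2 and 111. CamK and Grik libraries stood apart, with a log2 difference of 1.52 (SE 0.16, adjusted p 4.77e-08), and Grik was below SST without overlap (-1.07, SE 0.15, adjusted p 2.76e-06). CamK and SST libraries overlapped, and their log2 fold change of 0.45 (SE 0.15, adjusted p 0.0141) missed the threshold without CamK WT replicate 3 (0.29, adjusted p 0.0847), without SST WT replicate 1 (0.38, adjusted p 0.0511) or 2 (0.37, adjusted p 0.0527), and with the non-neuronal covariate (0.65, adjusted p 0.0828).

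Camk2g (ENSMUSG00000021820, chr14:20734875-20794088, minus strand) had 224, 236, 239.9 and 244 CPM in CamK WT, 126, 127, 128 and 130.3 among Grik WT and 244, 266, 282 and 282 in SST WT. The Grik libraries were close to one another and far below both other populations. The log2 fold change was 0.88 (SE 0.07, adjusted p 2.08e-10) for CamK against Grik and -1.07 (SE 0.07, adjusted p 1.41e-12) for Grik against SST. The SST libraries were all above the CamK libraries, with a log2 difference of CamK against SST of -0.19 (SE 0.07, adjusted p 0.0225). The CamK against SST call was lost without CamK WT replicate 3 or 4 (-0.16 and -0.18, adjusted p 0.0855 and 0.0545), without SST WT replicate 1 or 3 (both -0.16, adjusted p 0.0667 and 0.0687), and when only these populations were fitted (-0.19, adjusted p 0.0548). With the non-neuronal covariate the estimate was -0.39, also past the threshold.

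The 4 Camk2 genes together summed to 793 ± 27.2 CPM per kb of merged exons (SD, n = 4) in CamK WT, 870.3 ± 43.9 among Grik WT and 198 ± 7.27 in SST WT. Per kb of the longest annotated transcript the sums were 1359, 1480 and 354 in the same order. Within the sum per kb of merged exons the makeup differed between populations. Camk2a took 67.6, 68.4, 69.5 and 70.0% in the CamK WT libraries, 69.8, 70.4, 70.7 and 72.7% among Grik WT and 46.6, 48.9, 49.7 and 52.5% in SST WT. Camk2g took 4.57, 4.66, 4.66 and 4.71% in CamK WT, 2.18, 2.31, 2.35 and 2.36% among Grik WT and 18.9, 21.2, 21.5 and 23.4% in SST WT. The gamma share was thus several times larger in SST, where the Camk2 sum was smaller and the Camk2g level itself lay just above that in CamK. Camk2d took 0.634% ± 0.170 (SD, n = 4), 0.201% ± 0.0220 (SD, n = 4) and 1.85% ± 0.407 (SD, n = 4) in CamK, Grik and SST WT. Camk2b took, in the same order, 25.9% ± 1.22 (SD, n = 4), 26.6% ± 1.18 (SD, n = 4) and 27.4% ± 1.05 (SD, n = 4), and its libraries overlapped in every pair.

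Each share was compared between WT populations with a two-sided exact permutation test over libraries, 12 tests in all, for which the smallest p that 4 against 4 libraries can give is 0.0286. The shares of Camk2d and Camk2g differed in all 3 pairs and the share of Camk2a differed between SST and each pyramidal population, each without overlap and each at that smallest p (adjusted p 0.0429, 8 of 12 tests). The shares of the 4 genes in a library add up to the whole, so these tests are not independent of one another. The adjusted p of each rests on the others of the 8 being at that smallest p too. The Camk2a share was 19.4 percentage points lower in SST than in CamK and 21.4 lower than in Grik, and the Camk2g share was 16.6 and 19.0 points higher. The Camk2a share of CamK and Grik (difference -2.03 points, adjusted p 0.0762) and the Camk2b share in the 3 pairs (differences -0.754, -1.59 and -0.836 points, adjusted p 0.429, 0.171 and 0.374) did not pass. The log2 ratio of Camk2a to Camk2b per kb was 1.41 ± 0.09 (SD, n = 4) in CamK WT, 1.41 ± 0.09 (SD, n = 4) among Grik WT and 0.85 ± 0.12 (SD, n = 4) in SST WT, a difference of 0.57 in both pairs with SST (exact permutation test, adjusted p 0.0429 over 9 ratio tests). The sizes of the shares depend on the length chosen: with the longest annotated transcript, Camk2a took 41.4% and Camk2b 33.9% in SST WT, Camk2d took 1.51%, 0.481% and 4.20% in CamK, Grik and SST WT, and the Camk2b difference between Grik and SST turned from -0.836 to 0.724 points, neither past the threshold.

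**Figure D3:**
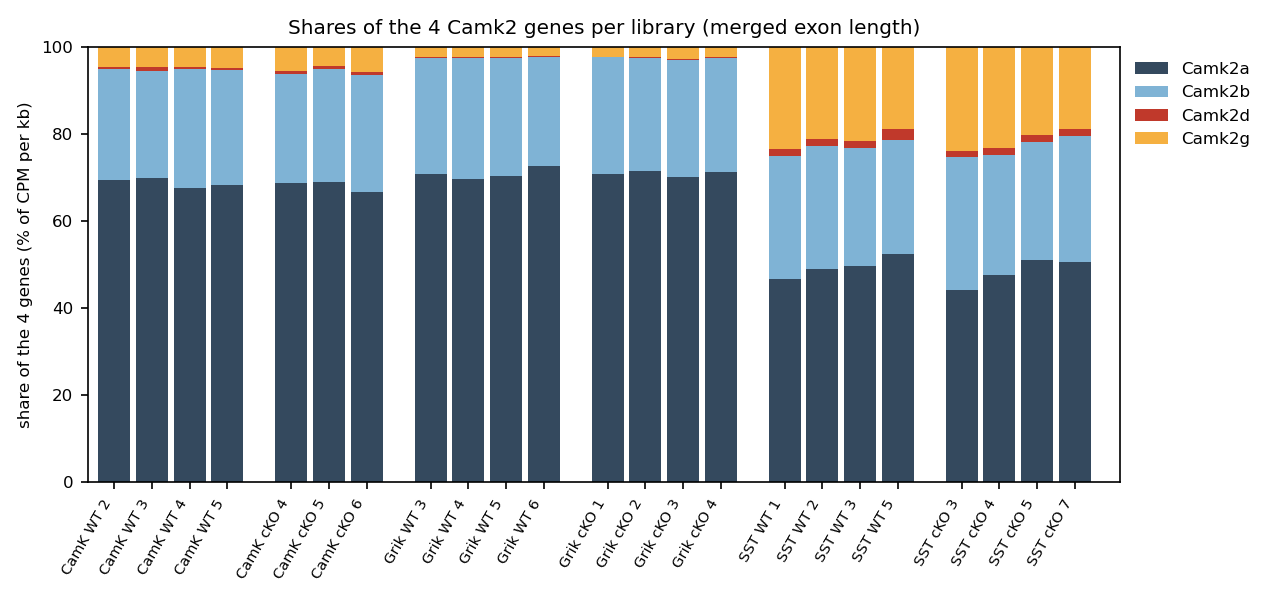
Share of the 4 Camk2 genes in their summed CPM per kb of merged exons (y axis, percent) in each of the 23 libraries (x axis). Camk2a fills 66.8 to 72.7% of the bar in the 15 pyramidal libraries and 44.3 to 52.5% in the 8 SST libraries, where Camk2g fills 18.8 to 23.8%.

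The promoter windows shown, of Camk2b, Camk2d and Camk1d, are those among the kinase windows that overlap no annotated exon. Expression played no part in that choice. Each is the 250 bases before the gene's start in RefSeq on GRCm38.p6. The Camk2b and Camk2d windows lie in introns of longer GENCODE transcripts of the same genes, and the Camk1d window lies outside the gene. Capitals mark GC boxes, the letters GGGCGG or, on the other strand, CCGCCC. In the same order, the windows are chr11:6065749-6065998 on the minus strand, chr3:126596701-126596950 on the plus strand and chr2:5714763-5715012 on the minus strand.
Camk2b: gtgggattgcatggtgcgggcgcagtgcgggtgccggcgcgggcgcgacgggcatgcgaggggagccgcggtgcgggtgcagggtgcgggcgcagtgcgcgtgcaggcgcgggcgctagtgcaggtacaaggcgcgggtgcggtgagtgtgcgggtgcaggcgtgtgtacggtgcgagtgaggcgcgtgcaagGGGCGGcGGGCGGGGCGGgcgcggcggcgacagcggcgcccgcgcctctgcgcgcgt
Camk2d: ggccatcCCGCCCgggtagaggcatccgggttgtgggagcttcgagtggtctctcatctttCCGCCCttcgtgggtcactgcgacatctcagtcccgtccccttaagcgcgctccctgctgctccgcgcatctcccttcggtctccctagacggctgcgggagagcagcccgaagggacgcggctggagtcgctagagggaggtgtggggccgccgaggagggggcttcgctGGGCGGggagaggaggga
Camk1d: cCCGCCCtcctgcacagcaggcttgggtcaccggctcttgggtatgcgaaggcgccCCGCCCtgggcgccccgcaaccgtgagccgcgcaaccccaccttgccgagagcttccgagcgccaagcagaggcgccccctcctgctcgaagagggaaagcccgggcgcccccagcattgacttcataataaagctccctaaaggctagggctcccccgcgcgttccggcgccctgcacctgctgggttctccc

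The table of promoters held 8 windows for 7 of the 10 genes. Camk2a, Camk2g and Camk4 had no entry. A GC box was found in 6 of the 8 windows and in 32.7% of all 32851 windows of that length. The half-site of the cAMP response element, TGACG or CGTCA on either strand, to which CREB is known to bind, was found in 2 of 8 windows (Camk1, 185 bases before the start, and Camkk1, 166 bases before it) and in 17.8% of all windows. The whole palindrome TGACGTCA, which contains that half-site, was found in 0 of 8 and in 1.55% of all windows. Letters of the NeuroD type of E-box, CAGATG or CATCTG, were found in 2 of 8 windows (Camk1 and the second Camk1d window) and in 14.4% of all windows. GC content was 78.4% in the Camk2b window, 68.4% in that of Camk2d and 69.2% in that of Camk1d shown.

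The CaMKI genes divided between the populations. Camk1d (ENSMUSG00000039145, chr2:5293457-5714515, minus strand), which encodes CaMKI delta, was highest in Grik. It had 352, 370.1, 389 and 412 CPM in CamK WT, 736, 769, 798 and 865 among Grik WT and 182, 191, 193 and 209.9 in SST WT. No 2 populations overlapped. The log2 fold change was -1.06 (SE 0.07, adjusted p 8.72e-12) for CamK against Grik, 0.97 (SE 0.07, adjusted p 7.62e-12) for CamK against SST and 2.03 (SE 0.07, adjusted p 1.34e-17) for Grik against SST.

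Camk1g (ENSMUSG00000016179, chr1:193346346-193370298, minus strand) encodes CaMKI gamma, a lipid-anchored, membrane-bound form. Its order was the reverse, with 159, 171, 178 and 182 CPM in SST WT, 72.3, 74.6, 87.9 and 98.7 in CamK WT and 39.6, 42.8, 44.1 and 49.0 among Grik WT. The 3 populations did not overlap, and SST was higher than CamK by 2.07-fold and than Grik by 3.93-fold (log2 fold changes -1.05, SE 0.11, adjusted p 6.08e-09 and -1.98, SE 0.11, adjusted p 6.73e-14). CamK was above Grik by a log2 difference of 0.93 (SE 0.11, adjusted p 1.55e-07). With the non-neuronal covariate that difference was 0.54 (adjusted p 0.0219). Across the 23 libraries the log2 CPM of Camk1d and Camk1g had a Pearson r of -0.975, a description that rests on the 3 populations they share.

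Camk1 (ENSMUSG00000030272, chr6:113334124-113343984, minus strand) encodes CaMKI alpha. It stood at 82.4, 82.5, 82.6 and 96.8 CPM in SST WT, 34.8, 36.2, 42.7 and 43.9 in CamK WT and 36.5, 36.6, 37.1 and 41.5 among Grik WT. SST was above both pyramidal populations without overlap (-1.13, SE 0.09, adjusted p 4.26e-11 for CamK against SST and -1.18, SE 0.09, adjusted p 1.62e-11 for Grik against SST). CamK and Grik overlapped, and the 95% interval of their log2 difference was -0.13 to 0.24 (adjusted p 0.639). Camk1 shares 232 exonic bases (3.88% of its exons) with Ogg1 on the opposite strand, and the strand setting of the counting is not given. How many of its reads come from those bases was not measured. Pnck, the CaMKI beta gene and no member of the set, was also highest in SST, at 135 ± 7.10 CPM (SD, n = 4) against 96.9 ± 13.5 in CamK and 121 ± 7.91 in Grik. Its log2 fold change was -0.47 (SE 0.09, adjusted p 0.00013) for CamK against SST and -0.16 (SE 0.09, adjusted p 0.16) for Grik against SST, the latter not past the threshold.

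Camk4 (ENSMUSG00000038128, chr18:32934931-33191228, plus strand), the gene of the nuclear kinase CaMKIV, followed Camk1d. Its level was 231, 246, 247 and 260.1 CPM in CamK WT, 321, 334, 342 and 411 among Grik WT and 64.7, 84.4, 84.8 and 88.6 in SST WT. No populations overlapped, and the log2 fold changes were 1.61 (SE 0.10, adjusted p 3.67e-13) for CamK against SST, 2.13 (SE 0.10, adjusted p 2.20e-15) for Grik against SST and -0.52 (SE 0.09, adjusted p 8.91e-05) for CamK against Grik. It shares 72 exonic bases (2.21%) with an antisense gene, 2310026I22Rik. Against the 3 CaMKI genes summed per kb, Camk4 had a log2 ratio of -0.22 ± 0.10 (SD, n = 4) in CamK WT, -0.26 ± 0.10 (SD, n = 4) among Grik WT and -2.07 ± 0.24 (SD, n = 4) in SST WT. The ratio was lower in SST by 1.85 and 1.81, without overlap (exact permutation test, adjusted p 0.0429 each). CamK and Grik overlapped in it (difference 0.04, adjusted p 0.707), and that difference was 0.28 with an adjusted p of 0.0367 when reads were used without length, where Grik exceeded SST by 1.18, and -0.02 with the longest transcript.

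Both upstream kinases were lower in SST. Camkk1 (ENSMUSG00000020785, chr11:73019008-73042073, plus strand) had 332, 361, 374 and 394 CPM in CamK WT, 368, 405, 407 and 432 among Grik WT and 77.9, 90.0, 92.7 and 94.2 in SST WT. SST lay below the pyramidal libraries without overlap, with log2 fold changes of 2.04 (SE 0.07, adjusted p 4.26e-17) for CamK against SST and 2.18 (SE 0.07, adjusted p 8.52e-18) for Grik against SST. CamK and Grik overlapped, and their log2 fold change was -0.14 (SE 0.07, adjusted p 0.112) with a 95% interval of -0.29 to 0.01.

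Camkk2 (ENSMUSG00000029471, chr5:122731170-122779409, minus strand), which also activates the energy sensor AMPK, had 309.9, 316, 345 and 359 CPM in CamK WT, 274, 280.0, 283 and 287 among Grik WT and 93.1, 102, 103 and 103 in SST WT. All 3 populations stood apart. CamK and Grik exceeded SST by log2 fold changes of 1.73 (SE 0.08, adjusted p 3.19e-15) and 1.49 (SE 0.08, adjusted p 3.59e-14), and CamK exceeded Grik by 0.24 (SE 0.08, adjusted p 0.015). The CamK against Grik call was lost without CamK WT replicate 5 (0.20, adjusted p 0.0593) and with the non-neuronal covariate (0.31, adjusted p 0.128). Per kb, the log2 ratio of Camkk2 to Camkk1 was -1.69 ± 0.19 (SD, n = 4) in CamK WT, -2.07 ± 0.10 (SD, n = 4) among Grik WT and -1.37 ± 0.15 (SD, n = 4) in SST WT. It was lowest in Grik, without overlap with CamK (difference 0.38) or SST (difference -0.70), both at an adjusted p of 0.0429 in the exact permutation test. CamK and SST overlapped (difference -0.31, adjusted p 0.0735). The level of this ratio depends on the lengths used, and its differences between populations do not: it was -0.52 in CamK, -0.90 among Grik libraries and -0.21 in SST per kb of the longest transcripts, and -0.13, -0.52 and 0.18 from reads without length.

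Levels in the SST libraries were set beside those of the excitatory markers. As a share of the mean of the 8 pyramidal WT libraries, the SST WT mean was 16.8% for Camk2a, 23.1% for Camkk1, 24.8% for Camk2b, 27.0% for Camk4, 32.7% for Camkk2 and 33.1% for Camk1d. These values and their order rest on pooling CamK with Grik: against CamK WT alone the 6 ran from 17.9% (Camk2a) to 50.9% (Camk1d) and against Grik WT alone from 15.9% (Camk2a) to 35.6% (Camkk2). Against Grik alone Camk1d was at 24.5%, and Camk4 was at 32.8% of CamK and 22.9% of Grik. The pooled share was 3.78% for Neurod6, 5.65% for Tbr1, 6.35% for Emx1, 6.61% for Slc17a7 and 7.28% for Neurod2, the 5 excitatory markers. Every one of these 6 kinases was thus at a higher share in SST WT than all 5 markers, and its lowest SST WT library (15.1% for Camk2a) was above the highest library of any marker (9.59% for Slc17a7). That held against each population alone, where the lowest library of the 6 was 16.1% of CamK and 14.2% of Grik and the highest of the markers 12.6% and 8.88%. In the libraries labelled cKO the pooled marker means were 4.42 to 8.59%, with single libraries up to 13.5%, and Camk2a was 16.5% (13.9 to 17.9%). Against each population alone, library values of Camk2a and of markers overlapped in cKO. Slc17a7 reached 19.3% of CamK cKO, where Camk2a was 14.8 to 19.1%. Tbr1 reached 15.5% of Grik cKO, where Camk2a was 13.2 to 17.1%. Across all 8 SST libraries the summed excitatory markers ranged from 103 to 266 CPM, while Camk2a ranged from 609 to 792 CPM. Non-neuronal markers also moved with the population, as given above. With their score as a covariate, all 10 genes were called for Grik against SST, 9 for CamK against SST and 5 for CamK against Grik, where the same fit called 57.7%, 38.7% and 21.3% of tested genes.

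**Figure D4:**
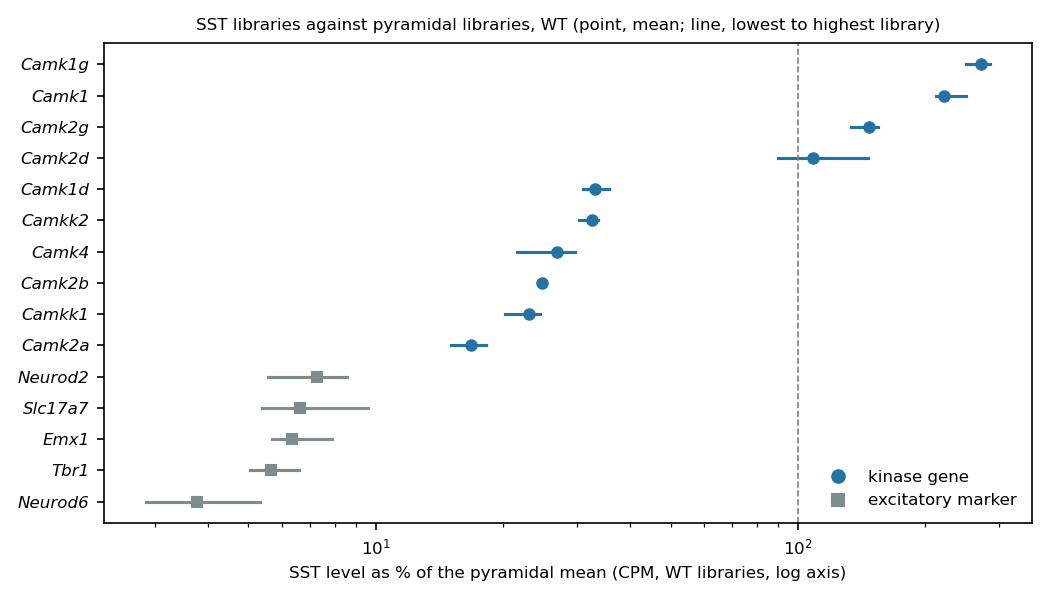
Mean level in the SST WT libraries as a percentage of the mean of the 8 pyramidal WT libraries (x axis, log scale) for the 10 kinase genes (circles) and 5 excitatory markers (squares). Lines run from the lowest to the highest of the 4 SST libraries; markers lie at 3.78 to 7.28%, 6 kinases at 16.8 to 33.1%, and Camk2d, Camk2g, Camk1 and Camk1g at 109 to 271%. The mean pools both populations: Camk2d in SST was 73.3% of CamK and 209.6% of Grik, and Camk1d 50.9% and 24.5%.

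The second question was whether the kinases depend on the cKO label. Under edgeR's test, 0 of 10 passed an adjusted p of 0.05 in CamK, in Grik or in SST, where 0.0106% of all tested genes (2 of 18823) were called in each population. DESeq2 and limma-voom also called 0 of 10 in each. Of all genes, DESeq2 called 16 (CamK), 14 (Grik) and 11 (SST), and limma-voom 6, 37 and 0 respectively. At an unadjusted p below 0.05 there was 1 gene in CamK (Camk2g), 1 in Grik (Camkk1) and none in SST, where 7.05%, 4.88% and 5.85% of tested genes reached that p. The median log2 fold change of the 10 genes was 0.05 in CamK, -0.01 among Grik libraries and 0.01 in SST, and single values ran from -0.18 (Camk2d in SST) to 0.21 (Camk4 in CamK). The 95% intervals bound what these libraries allow. For Camk2a they were -0.15 to 0.18 in CamK, -0.16 to 0.15 among Grik libraries and -0.17 to 0.14 in SST, and for Camk2b -0.09 to 0.16, -0.13 to 0.11 and -0.04 to 0.19. They were widest for Camk2d, -0.28 to 0.41, -0.45 to 0.19 and -0.50 to 0.14.

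**Figure D5:**
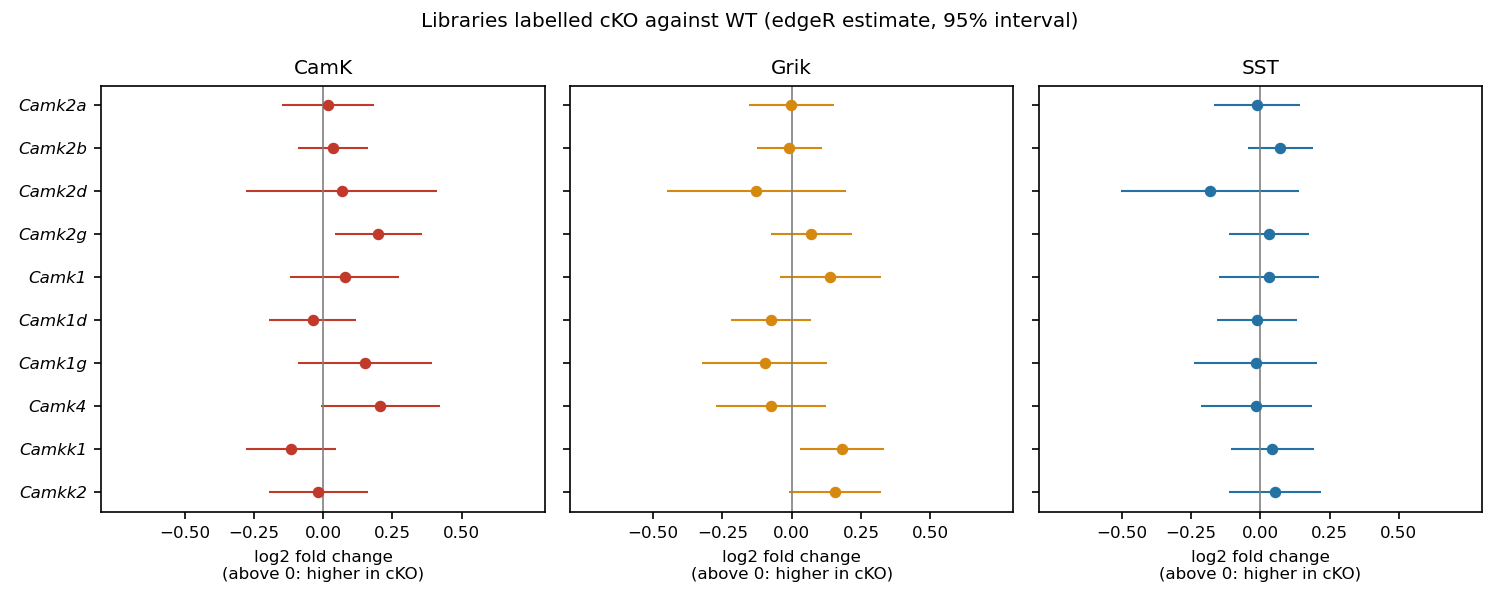
Log2 fold change of libraries labelled cKO against WT (x axis, edgeR estimate with its 95% interval) for the 10 kinase genes (y axis) in each population. Estimates lie between -0.18 and 0.21 and none passed an adjusted p of 0.05; the intervals of Camk2g in CamK and Camkk1 in Grik do not reach 0 before adjustment.

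Camk2g in CamK, which reached an unadjusted p below 0.05, and the members whose genotypes did not overlap are given by library. Camk2g in CamK had 237, 281 and 295 CPM in the libraries labelled cKO and 224, 236, 239.9 and 244 in WT, so 2 of 3 cKO libraries lay above all WT libraries and the third among them (log2 fold change 0.20, SE 0.07, adjusted p 0.647). Camk4 in CamK had 272, 280.2 and 299.7 CPM against 231, 246, 247 and 260.1, with no overlap (0.21, SE 0.10, adjusted p 0.715). Camkk1 in Grik had 441, 446, 454 and 487 CPM against 368, 405, 407 and 432, also with no overlap (0.18, SE 0.07, adjusted p 0.946). Camkk2 in Grik had 299, 317, 319 and 319 CPM against 274, 280.0, 283 and 287 (0.16, SE 0.08, adjusted p 0.992), and Camk2b in SST 508, 509.9, 511 and 552 CPM against 482, 486, 505 and 506 (0.07, SE 0.06, adjusted p 0.861). The genotypes thus did not overlap for 1 of 10 genes in CamK (6.75% of tested genes), 2 in Grik (4.59%) and 1 in SST (2.70%), and each of these missed the threshold. Summed non-neuronal markers were 224 to 282 CPM in CamK cKO against 146 to 224 in WT, 703 to 999 against 656 to 859 among Grik libraries and 261 to 1009.7 against 305 to 662 in SST. With their score as a covariate, 0 of 10 were called in each population, where that fit called 3 of all genes in CamK, 2 in Grik and 1 in SST.

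Whether the cKO effect differed between populations was tested directly. No member passed for CamK against Grik, CamK against SST or Grik against SST, where 0.00531%, 0% and 0.0106% of tested genes were called by edgeR. DESeq2 and limma-voom also called no member, where they called, in the same order, 11, 14 and 4 and 1, 1 and 2 of all genes. At an unadjusted p below 0.05 there were 1, 0 and 0 members, where 6.50%, 7.85% and 3.86% of tested genes reached that p. The smallest p was that of Camkk1 for CamK against Grik, where the effects were -0.12 and 0.18 on the log2 scale and differed by -0.30 (SE 0.10, p 0.00891, adjusted p 0.754, edgeR). None of 12 two-sided exact permutation tests of the Camk2 shares between genotypes passed (lowest p 0.286), nor did any of 9 tests of the 3 ratios (lowest p 0.229), both p-values before adjustment. With 3 against 4 libraries the smallest p in CamK is 0.0571, so no CamK share or ratio could have passed. In Grik and SST the smallest is 0.0286, and after adjustment any pass would have needed at least 7 of the 8 share tests, or all 6 ratio tests, at that value, so the adjusted tests had little room to pass. In the libraries labelled cKO, Camk2a took 68.1% ± 1.21 (SD, n = 3) of the Camk2 sum in CamK, 71.0% ± 0.625 (SD, n = 4) among Grik libraries and 48.4% ± 3.11 (SD, n = 4) in SST, and Camk2g took 5.23% ± 0.715 (SD, n = 3), 2.42% ± 0.171 (SD, n = 4) and 21.5% ± 2.39 (SD, n = 4). The differences from WT were -0.725, 0.0575 and -1.08 percentage points for Camk2a and 0.586, 0.119 and 0.232 for Camk2g.

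Between the populations labelled cKO the same tests called 5 of 10 genes for CamK against Grik, where 35.7% of tested genes were called, 9 for CamK against SST (56.4%) and 10 for Grik against SST (57.9%). Camk2g, called between CamK and SST in WT, was not called between the cKO groups, whose libraries overlapped (-0.02, SE 0.07, adjusted p 0.861). Camk2b, Camk4 and Camkk2, called between CamK and Grik in WT, were not called in cKO, where the log2 fold changes were -0.13 (SE 0.06, adjusted p 0.11), -0.24 (SE 0.10, adjusted p 0.0769) and 0.07 (SE 0.08, adjusted p 0.578). Camkk1 was called in cKO (-0.44, SE 0.08, adjusted p 6.44e-05) and not in WT. The tests of the differences between these WT and cKO values are those of the cKO effects given above, and none passed. For Camk4, CamK cKO had 272 to 299.7 CPM and Grik cKO 302 to 363, without overlap, and its difference passed without SST WT replicate 1 (-0.24, adjusted p 0.0410). The CamK against Grik count in cKO was 8 of 10 with limma-voom and sample weights (44.4% of tested genes), which added Camk2a, Camk2b and Camk4. It was 7 of 10 when only these populations were fitted (39.8% of tested genes), which added Camk2a (-0.16, adjusted p 0.0392) and Camk4 (-0.24, adjusted p 0.0282).

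The rest of the pathway was followed in 5 lists of genes. In none did a gene pass in any comparison of cKO with WT, where 0.0106% of all tested genes were called in each population. At that share a count of 0 says little about the lists. Among the calmodulin genes and genes of other calmodulin-related proteins (7 genes), 6 were higher and 1 lower in CamK than in SST in WT, and 5 were higher and 2 lower in Grik than in SST. The calmodulin genes Calm2 (log2 fold changes against SST of 1.30 in CamK and 0.89 in Grik) and Calm3 (0.77 and 0.74) were called higher in both. Nrgn, neurogranin, which holds calmodulin near dendritic membranes, had 2357 ± 344 CPM (SD, n = 4) in CamK and 132 ± 7.50 in SST (log2 fold change 4.16, SE 0.18, adjusted p 1.48e-14). Pcp4l1, a relative of the calmodulin regulator Pcp4, went the other way, at 214 ± 19.0 CPM in SST, 15.6 ± 3.37 in CamK and 4.05 ± 1.26 in Grik. Between CamK and Grik, 3 of the 7 were called, all higher in CamK: Pcp4l1 (1.94), Gap43 (1.01), an axonal growth protein that binds calmodulin, and Calm2 (0.41).

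Among inhibitors of CaMKII and phosphatases (13 genes), 8 were higher and 5 lower in CamK than in SST, and 8 higher and 4 lower in Grik than in SST. The 2 endogenous CaMKII inhibitor genes pointed in opposite directions. Camk2n1 had 705 ± 55.8 CPM in CamK, 636 ± 59.3 among Grik libraries and 399.6 ± 11.3 in SST (SD, n = 4 each), a log2 difference of 0.82 (SE 0.09, adjusted p 1.62e-08) for CamK against SST. Camk2n2 had 50.9 ± 8.04, 51.9 ± 5.55 and 155 ± 19.9 CPM and was higher in SST (-1.61, SE 0.12, adjusted p 2.05e-11 and -1.58, SE 0.12, adjusted p 2.63e-11). Ppp3ca, the catalytic subunit of the calcium-activated phosphatase calcineurin, was higher in CamK and Grik than in SST (2.37 and 2.18). Rcan2, a regulator of calcineurin, was higher in SST, at 849 ± 90.5 CPM against 48.0 ± 9.92 in CamK and 19.8 ± 7.48 in Grik (log2 fold changes -4.14 and -5.42).

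Among CaMKII anchors and substrates (12 genes), 9 were higher and 2 lower in each pyramidal population than in SST, with medians of 0.75 for CamK and 0.90 for Grik. Kalrn, a signalling protein of dendritic spines, had 863 ± 37.8 CPM in CamK, 547 ± 75.6 among Grik libraries and 148 ± 18.7 in SST (2.54 and 1.88 against SST). The NMDA receptor subunit gene Grin2a was higher in both (1.49 and 1.32). Cacna1c, a pore subunit of L-type calcium channels, was lower in CamK than in Grik (-1.27, SE 0.11, adjusted p 2.20e-09). Among nuclear and CaMKK targets (16 genes), 9 were higher and 2 lower in CamK than in SST, and 8 higher and 3 lower in Grik than in SST. Crtc1, a coactivator of CREB, was higher in both (1.34 and 1.61). Mef2c, a calcium-regulated transcription factor, was lowest in Grik, at 74.5 ± 12.5 CPM against 274 ± 69.7 in CamK and 312 ± 38.8 in SST.

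Among other kinases related to the CaM kinases (12 genes), 6 were higher and 2 lower in CamK than in SST and 6 higher and 3 lower in Grik than in SST, with medians of 0.31 and 0.30. Camkv, which encodes a kinase-like protein without catalytic activity, had 1285 ± 115 CPM in CamK, 1117 ± 46.6 among Grik libraries and 236 ± 22.4 in SST (2.45 and 2.24 against SST). Dclk3 was higher in CamK than in Grik (1.39, SE 0.16, adjusted p 1.91e-07), and Dapk1, a death-associated kinase regulated by calmodulin, likewise (1.10, SE 0.08, adjusted p 1.01e-10). Between CamK and Grik the counts higher and lower were 5 and 4 of 12 for these relatives, 2 and 2 of 13 for inhibitors and phosphatases, 5 and 2 of 12 for anchors and substrates and 6 and 5 of 16 for nuclear targets. All lists stand beside the shares of all tested genes called in those comparisons, given above, and nothing is read from them beyond their counts.

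The genes whose levels ran most like each kinase over the 23 libraries were found by Pearson r of log2 CPM among 9101 genes with a mean of at least 10 CPM. For Camk2a these were Chn1 (0.998), Gsta4 (0.997) and Ptk2b (0.997), for Camk2b Mast3, Rasgrp1 and Gsta4 (0.997 each), and for Camk4 Frrs1l (0.993), Psd3 (0.991) and Rbfox1 (0.991). For Camk2d they were Plch1 (0.971), Thrb (0.968) and Atp2b4 (0.962), and for Camk2g Tmem132d (0.982), Efhd2 (0.979) and Mtcl1 (0.978). Plch1, like Camk2d, was lowest among Grik WT (5.56 CPM, against 22.7 in CamK and 12.6 in SST). Within the set, Camk2a and Camk2b had the highest r (0.997) and Camk2a and Camk1 the lowest (-0.978). These values are a description over libraries that come from 3 populations, and carry no test.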

How the data were processed

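Polyadenylated RNA of 23 hippocampal libraries was measured as whole-number read counts per gene. The authors deposited 1 table of raw counts, with no normalization, and the submitters' processing notes name Trimmomatic, STAR and GRCm38. Tool versions, annotation release and strand setting are not given in the sources used here. The 4 rows of unassigned reads (12.4 to 18.4% of a library) were left out.

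The 45143 gene IDs found in GENCODE M21 of 45706 gave symbols, positions and lengths. Libraries were scaled by TMM, low counts were filtered by filterByExpr, and all 23 libraries were fitted together in edgeR 4.0.16 (R 4.3.3; robust quasi-likelihood, 17 residual degrees of freedom, common biological coefficient of variation 16.3%), with Benjamini-Hochberg adjustment over 18823 genes within each of 12 comparisons and a threshold of 0.05. Each SE was derived from the log2 fold change and its quasi-likelihood F statistic, and 95% intervals used a t quantile with 17 degrees of freedom. The tests themselves add prior degrees of freedom, so an interval can reach 0 where the unadjusted p is below 0.05. CPM values are counts per 1000000 TMM-scaled reads. Levels per kb, Camk2 shares and log2 ratios used the merged exon length and scipy 1.17.1 exact permutation tests. The non-neuronal score is the mean log2 CPM of 13 markers. All 10 kinases are named. From each pathway list the calmodulin genes, Camk2n1, Camk2n2, Pnck and up to 3 called genes with the largest change per WT comparison were eligible to be named, and for Camk2a, Camk2b, Camk2d, Camk2g and Camk4 the 3 other genes of at least 10 mean CPM with the highest Pearson r over the libraries. Some genes that this rule names are not reported here. The members and lists were chosen with earlier results of these data known. On simulated counts the edgeR fit recovered 92%, 89% and 91% of genes changed 2-fold between cKO and WT in CamK (18285 genes), Grik (18325) and SST (18328), and 70%, 76% and 73% of those changed 1.5-fold, and 2.41%, 7.82% and 5.75% of its calls were false. Each simulation changed 100 genes 2-fold and 100 genes 1.5-fold, whereas each real comparison of cKO with WT called 2 genes. With fewer changed genes the adjustment is stricter. Smaller changes, such as those estimated for the kinases, were not simulated. Alternatives were RLE scaling, other filters, DESeq2 1.42.0, limma-voom (limma 3.58.1), fewer libraries, a replicate block, the non-neuronal score as covariate, other lengths and leaving out each library.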

Additional observations from a re-analysis of the deposited data

Results flagged for a closer look

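Each group of 4 libraries was searched for a library set apart from the others by more than Dixon's 95% critical value of 0.829. Over 85 sets (10 genes, 4 shares and 3 ratios in 5 groups) 9 had such a library, where chance gives about 4.25. No cause was tested.

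Camk2a in Grik cKO replicate 3 was 4402 CPM, where the others were 4645 to 4690, and Camkk2 in the same library was 298.6 CPM, where the others were 317.1 to 319. Camk2b in Grik WT replicate 3 was 2046 CPM, below 2126 to 2140 in the others. Camk1 in Grik WT replicate 6 was 41.46 CPM, above 36.49 to 37.08.

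In SST WT, Camk1 in replicate 1 was 96.8 CPM, above 82.42 to 82.56, and Camkk2 in replicate 2 was 93.1 CPM, below 102.2 to 103. SST cKO replicate 7 stood apart in 3 measures: Camk2b at 551.7 CPM against 507.9 to 510.9, Camkk2 at 128 CPM against 93.41 to 98.35, and the log2 ratio of Camkk2 to Camkk1 at -1.044 against -1.519 to -1.445. The same library had the highest summed excitatory markers (266 CPM) and non-neuronal markers (1009.7 CPM) of the 8 SST libraries.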

How the results depend on the processing

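Of the population differences called for the 10 genes, 404 values under other settings kept the direction and the call and 4 lost the call. With 1 library left out, 1164 kept both and 9 lost the call. The calls lost are given beside each gene, and no value that changed sign had an adjusted p below 0.05. The number of kinases called between CamK cKO and Grik cKO was 5 and became 8 with limma-voom and 7 with these populations alone. Leaving out 1 library moved the kinases called to 6 to 8 for WT CamK against Grik, 8 to 10 for WT CamK against SST and 5 to 6 for cKO CamK against Grik, and the count was 0 for each comparison of cKO with WT. For those population comparisons, in the same order, such fits called 7129 to 8151, 10671 to 11468 and 5586 to 6992 of all genes. The causes were not tested. With 3 or 4 libraries a group, the number of libraries limits the precision.

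Counts over all genes moved by more than 1.5 times as follows. For cKO against WT in CamK, 2 became 16 with DESeq2, 6 with limma-voom, 1 with that population alone and 4 with the block. In Grik, 2 became 14, 37 and 5 with the first 3 of these. In SST, 2 became 11 with DESeq2, 0 with limma-voom or that population alone, and 1 with no filter or the covariate. For differences of cKO effects, 1 (CamK minus Grik) became 11 with DESeq2 and 0 with the block, 0 (CamK minus SST) became 14 with DESeq2 and 1 with limma-voom or the covariate, and 2 (Grik minus SST) became 4 with DESeq2. With the covariate, 7912 became 4015 (WT CamK against Grik), 11305 became 7288 (WT CamK against SST) and 6716 became 4303 (cKO CamK against Grik). With 1 library left out, the counts for cKO against WT ran from 1 to 4 in CamK, 1 to 9 in Grik (9 without Grik WT replicate 6) and 0 to 3 in SST, and those for CamK minus Grik from 0 to 2 and for CamK minus SST from 0 to 1.

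Some replicate numbers are shared across genotypes, and the labels do not say whether they pair the libraries. The 6 same-numbered pairs within populations had correlations of deviations from group means of -0.0999 to 0.129. So few pairs cannot settle whether the numbers pair libraries, and the main fit did not pair them. The replicate block took each number as the same level in all populations. With the replicate block, Camk2a passed for cKO CamK against Grik (-0.26, adjusted p 0.0242), and no other kinase's call changed. Values that changed sign under the block were Camk2a -0.040 and Camk2d -0.021 for CamK cKO against WT, Camk2a 0.070, Camk2b 0.0043 and Camk2d 0.064 for Grik cKO against WT, Camk1d 0.036, Camk1g 0.027 and Camkk2 -0.089 for SST cKO against WT, Camk2a -0.11 and Camk2d -0.085 for CamK minus Grik, Camkk2 0.044 for CamK minus SST, Camk4 0.13 for Grik minus SST, Camk1 0.011 for cKO CamK against cKO Grik.

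Other estimates that changed sign, on the log2 scale except for 1 share, were these ("minus" marks a difference of cKO effects). With limma-voom, Camk2d -0.023 and Camkk2 0.038 for CamK cKO against WT, Camk2a 0.018 for Grik cKO against WT, Camk2a -0.0070 for CamK minus Grik, Camkk2 0.022 for CamK minus SST, Camk4 0.051 for Grik minus SST, Camk1 0.059 for cKO CamK against cKO Grik, Camk2g 0.029 for cKO CamK against cKO SST. With the non-neuronal covariate, Camk2a -0.044 for CamK cKO against WT, Camk1d 0.0015 and Camk1g 0.034 for SST cKO against WT, Camk2a -0.031 for CamK minus Grik, Camk2a -0.00054 for CamK minus SST, Camk2a 0.0089 for WT CamK against WT Grik, Camk1 0.0060 for cKO CamK against cKO Grik. With RLE scaling, Camk1 0.0021 for cKO CamK against cKO Grik. With no filter, Camk1 0.0017 for cKO CamK against cKO Grik. With a filter of CPM 1 or more in 3 or more libraries, Camk1 0.013 for cKO CamK against cKO Grik. With DESeq2, Camk1 0.0021 for cKO CamK against cKO Grik. With the compared populations alone, Camk2g 0.0088 for cKO CamK against cKO SST. With the longest transcript, the Camk2b share in percentage points 0.72 for WT Grik against WT SST, the Camk4 to CaMKI ratio -0.0055 for SST cKO against WT, the Camk4 to CaMKI ratio -0.023 for WT CamK against WT Grik. With reads and no length, the Camk4 to CaMKI ratio -0.0029 for SST cKO against WT.

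With each library left out in turn, 30 estimates changed sign, with these lowest and highest values. For CamK cKO against WT they were Camk2a -0.016 to 0.044, Camk2b -0.0022 to 0.080, Camk2d -0.024 to 0.24, Camk1 -0.012 to 0.16, Camk1d -0.075 to 0.014 and Camkk2 -0.076 to 0.023. For Grik cKO against WT they were Camk2a -0.024 to 0.041 and Camk4 -0.13 to 0.0082. For SST cKO against WT they were Camk2a -0.061 to 0.062, Camk2g -0.017 to 0.071, Camk1 -0.015 to 0.093, Camk1d -0.040 to 0.034, Camk1g -0.077 to 0.062, Camk4 -0.11 to 0.056, Camkk1 -0.013 to 0.073 and Camkk2 -0.063 to 0.10. For CamK minus Grik they were Camk2a -0.025 to 0.047, Camk1 -0.15 to 0.017 and Camk1d -0.0097 to 0.094. For CamK minus SST they were Camk2a -0.045 to 0.078, Camk2b -0.059 to 0.024, Camk1 -0.044 to 0.13, Camk1d -0.072 to 0.039 and Camkk2 -0.13 to 0.046. For Grik minus SST they were Camk2a -0.063 to 0.060, Camk2d -0.13 to 0.15 and Camk4 -0.13 to 0.031. For WT CamK against WT Grik they were Camk1 -0.00020 to 0.11. For cKO CamK against cKO Grik they were Camk1 -0.095 to 0.074. For cKO CamK against cKO SST they were Camk2g -0.081 to 0.071.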
